A study of Sus scrofa with 6 samples.

Results

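The genes described here are the pig genes whose symbol is ZNF followed by a digit. Ensembl gene identifiers were paired with symbols and every such symbol was taken, which gave 168 genes among 18225 rows, each on 1 row. RNA was measured in the brains of 3 Rongchang pigs, a domesticated Chinese breed, and 3 wild boars, all 210 days old, with 1 library per animal. The labels state no treatment or brain region for either group, and give the breed as Rongchang for the first and only the name wild boar for the second. The title of the series asks how the brain transcriptome of domesticated pigs and wild boars differs, above all in immune genes. Values are FPKM, fragments mapped to a gene divided by transcript length and library total, so levels of different genes can be set side by side.

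A zinc finger is a short fold held together by a zinc ion, and most ZNF genes encode proteins with several such fingers of the C2H2 type in a row, each of which reads a few bases of DNA. Many also carry a KRAB domain, which recruits the corepressor TRIM28 and with it the histone methyltransferase SETDB1, so that bound DNA, often a transposable element, is packed into heterochromatin. The ZNF symbol is a naming series rather than a structural class. ZNF185, for example, encodes an actin-associated LIM domain protein, ZNF598 a ubiquitin ligase of stalled ribosomes, and ZNF622 a factor of large ribosomal subunit maturation.

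The ZNF genes formed a narrow band of low but steady levels. The median gene stood at 2.54 FPKM as a mean over the 6 libraries, and the middle 50% of genes lay between 1.36 and 5.15 FPKM. All other rows had a median of 3.9 FPKM and a middle range of 0.766 to 12.3, so the ZNF genes were short of both ends. Means between 1 and 10 FPKM were found for 130 of the 168 ZNF genes (77.4%) and for 42.8% of other rows. Only 11 ZNF genes (6.55%) reached 10 FPKM, against 29.2% of other rows, and 0 reached 100 FPKM, against 2.94%. At the low end, 27 (16.1%) stayed under 1 FPKM, against 28.0%. Rows with no symbol are part of that comparison. Among the 10769 other rows with a symbol the median was 4.98 FPKM, 45.0% lay between 1 and 10 and 32.7% reached 10.

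**Figure D1:**
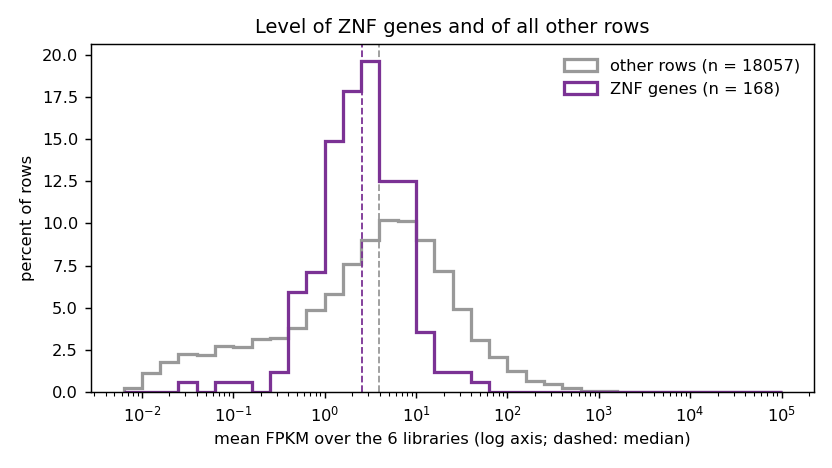
Share of rows (percent) by mean FPKM over the 6 libraries, on a log axis, for the 168 ZNF genes (purple) and 18057 other rows (grey), with dashed lines at the medians of 2.54 and 3.9 FPKM. The ZNF genes pile up between 1 and 10 FPKM while the other rows spread to both sides.

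Nearly every listed ZNF gene was detected. No row, ZNF or other, read 0 in all 6 libraries, so silent genes could not be among those listed. A value above 0 was listed in all 6 libraries for 167 of 168 genes (99.4%), against 85.4% of other rows. The exception was ZNF541, which read 0.03, 0.05 and 0.08 FPKM in the Rongchang pigs and 0, 0.07 and 0 in the wild boars. At least 1 FPKM in at least 3 libraries, the filter used for testing, was reached by 143 ZNF genes (85.1%) and 72.0% of other rows. Among other rows with a symbol it was reached by 78.0%. The 25 ZNF genes that missed the filter had means from 0.04 to 0.953 FPKM. Just above a mean of 1 FPKM lay ZNF624 (1.06) and ZNF389 (1.08), and just below it ZNF333 (0.953), which was not tested, and ZNF232 (0.941), which was. ZNF319 and ZNF566 passed only through Rongchang, where all 3 libraries were above 1 FPKM and all 3 wild boars were below, so these genes had to differ between the breeds to be tested.

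Of the 10 most abundant members, ZNF428 was the highest, reading 40.1, 37.2 and 65.0 FPKM in the Rongchang pigs and 29.2, 44.5 and 33.7 in the wild boars, and 7.7% of other rows had a higher mean. Its high mean in Rongchang came with 1 library, Rongchang 3, far above the rest, and the breeds overlapped. ZNF207, a microtubule-binding protein that loads the checkpoint protein BUB3 onto kinetochores, came next and is described with the breed comparison. ZNF358 averaged 32.9 ± 0.554 FPKM in the Rongchang pigs and 31.5 ± 3.03 in the wild boars (mean ± SD, n = 3 here and below). ZNF385A, an RNA-binding cofactor of p53, stood at 19.5 ± 2.25 and 20.3 ± 2.98, and its paralogue ZNF385D at 11.4 ± 1.08 and 13.2 ± 3.53. ZNF277 stood at 18.1 ± 3.52 and 15.8 ± 2.82, ZNF667 at 14.99 ± 2.65 and 16.0 ± 3.02, and ZNF239 at 12.8 ± 1.88 and 11.4 ± 1.22. The last of the 10 were ZNF365 and ZNF512, with means of 11.4 and 11.3 FPKM over the 6 libraries. ZNF358, ZNF385A, ZNF277, ZNF667, ZNF385D and ZNF239 overlapped between the breeds.

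Depth per library is unknown for FPKM values, whose totals ran from 568921 to 687359. The 13 mitochondrially encoded genes made up 30.0% to 46.8% of these totals, with overlap between the breeds. Summed marker levels ran from 1405 to 2041 FPKM for neurons (6 of 7 markers found) and from 947 to 1216 for astrocytes (5 of 6). Oligodendrocyte markers (4 of 6) came to 1230 to 2027 FPKM and microglia markers (5 of 7) to 48.8 to 112. Choroid plexus or meninges markers (4 of 6) came to 8.74 to 47.9 FPKM and blood markers (4 of 6) to 59.5 to 275. The breeds overlapped in each of these sums. The single pituitary marker found of 6, TSHB, did not exceed 0.17 FPKM. The summed level of 3 vessel markers of 6 listed (FLT1, PECAM1 and PDGFRB) was 15.2 to 20.5 FPKM in Rongchang and 23.6 to 25.7 in wild boar, without overlap, and its part in the ZNF values was not tested. Fewer cells of a type and less RNA per cell cannot be told apart in such bulk tissue. Near-identical paralogues, of which the ZNF genes have many, can share reads in ways these values do not show, and overlapping antisense genes are uncertain because no source used here gives the strand setting of the counting.

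Summed over all 168 genes, ZNF transcripts came to 705, 765 and 765 FPKM in Rongchang and to 627, 747 and 645 in wild boar. Wild boar 2 lay above Rongchang 1, so the sums overlapped. Their share of all FPKM was 0.128% ± 0.00995 for the Rongchang pigs and 0.109% ± 0.019 for the wild boars, or 0.209% ± 0.0169 and 0.193% ± 0.0238 of the total without mitochondrially encoded genes. On the second measure the breeds differed by less than the SD of either.

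No ZNF gene passed the test of the breeds over all genes. Of the 143 tested, 0 passed (limma, adjusted p), where 1 of 13152 genes did (0.0076%), a row without a symbol that was lower in wild boar. The smallest adjusted p of a ZNF gene was 0.724. At an unadjusted p under 0.05, 6 ZNF genes were lower (4.2%) and 1 was higher (0.699%) in wild boar, against 5.42% and 0.578% of all genes. The shares are near the background. The 6 lower genes include ZNF319, which passed the filter only through Rongchang. For that gene the filter itself required lower values in wild boar, so it adds nothing to the count. Over all 168 members with no filter on low values, 8 were lower and 1 higher at that mark, 5.36% together against 6.1% of all genes.

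The ZNF genes shared the slight general lowering of values in wild boar. Of those tested, 111 of 143 (77.6%) had a fold change below 0, and 77.9% of other tested rows did. The median log2 fold change, wild boar minus Rongchang on log2(FPKM + 1), was −0.09 for ZNF genes and −0.13 for other rows, a difference of 0.04. Other tested rows with a symbol had a median of −0.13, with 79.3% below 0. Single libraries moved the medians and shares. Without wild boar 2 the ZNF median was −0.16, with 83.2% of ZNF genes and 75.4% of other rows below 0, and without Rongchang 2 it was −0.06, with 63.6% and 72.9%. The median shift of all rows is removed when each library is scaled to the same median. Then 39.9% of ZNF genes and 46.5% of other rows lay below 0, the medians were 0.025 and 0.015, and 5 ZNF genes were higher and 2 lower at an unadjusted p under 0.05, against 1.89% and 1.87% of all genes. The direction of the ZNF median therefore depends on the scaling.

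**Figure D2:**
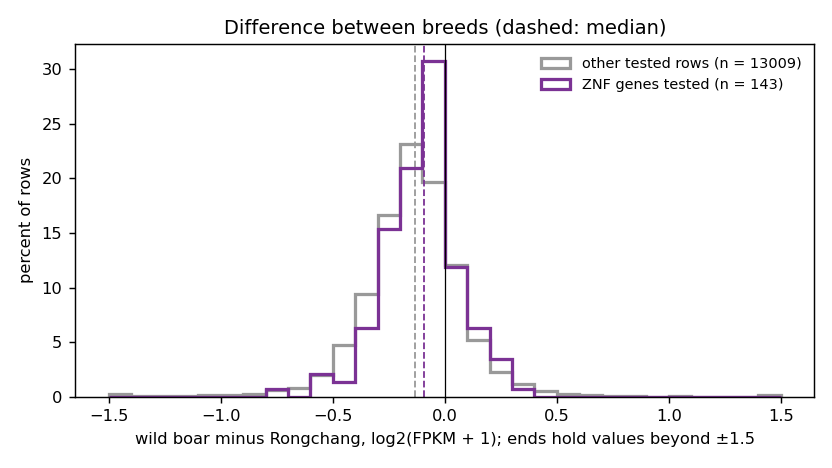
Share of tested rows (percent) by difference between the breeds, wild boar minus Rongchang in log2(FPKM + 1), for 143 ZNF genes (purple) and 13009 other rows (grey), with dashed lines at the medians of −0.09 and −0.13. The purple outline follows the grey one and has thinner tails.

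The spread of ZNF genes had smaller medians than that of other rows, both between and within breeds. A difference of more than 0.5 log2 units in either direction was seen in 4 of 143 (2.8%) and in 5.18% of other rows, and the ZNF differences ran from −0.77 to 0.40. The median SD within a breed on the log2(FPKM + 1) scale was 0.17 for ZNF genes and 0.23 for other rows. Since that scale shrinks differences of low genes, the same was read by level. Between 1 and 2 FPKM the SD was 0.16 for 35 ZNF genes and 0.23 for other rows, between 2 and 5 FPKM 0.16 for 61 and 0.22, between 5 and 10 FPKM 0.18 for 34 and 0.23, and from 10 FPKM up 0.17 for 11 and 0.24. Median log2 fold changes in these 4 bands were −0.08, −0.11, −0.08 and −0.15 for ZNF genes and −0.12, −0.13, −0.14 and −0.13 for other rows. The median size of the fold change, without its sign, was 0.096, 0.14, 0.14 and 0.16 for ZNF genes and 0.17, 0.16, 0.17 and 0.15 for other rows, so it was smaller for ZNF genes in each band but the highest. These values describe the list and were not tested. Other rows here include rows with no symbol, and the spread was not read without them.

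The breeds did not overlap in 23 of the tested ZNF genes. In 19 (13.3%) all 3 wild boars lay below all 3 Rongchang pigs, against 11.4% of all genes, and in 4 (2.8%) all lay above, against 1.12%. The 19 include ZNF319 and ZNF566, which passed the filter only through Rongchang. For these genes the filter itself required the lack of overlap, so they add nothing to the comparison with all genes. With the members that were not tested, 1 more lay wholly below, ZNF367, which read 0.67, 0.57 and 0.52 FPKM in the Rongchang pigs and 0.30, 0.31 and 0.18 in the wild boars. The 4 higher genes were ZNF567, ZNF217, ZNF79 and ZNF143.

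ZNF319 had the smallest p. It read 1.83, 2.00 and 1.99 FPKM in the Rongchang pigs and 0.78, 0.96 and 0.465 in the wild boars. All wild boars were below all Rongchang pigs, with a mean 2.64-fold higher in Rongchang (log2 fold change −0.77, SE 0.16, adjusted p = 0.724 in limma). On log2(FPKM + 0.1) the fold change was −1.33. As said above, the filter let this gene in through Rongchang alone.

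ZNF346, a protein that binds double-stranded RNA, was the tightest of the lower genes. It read 4.88, 4.94 and 5.34 FPKM in the Rongchang pigs and 3.20, 3.06 and 3.10 in the wild boars (log2 fold change −0.56, SE 0.13, adjusted p = 0.724 in limma). The gap between the breeds was larger than the range within either. ZNF207 read 39.1, 42.9 and 43.0 FPKM in the Rongchang pigs and 30.9, 31.5 and 29.8 in the wild boars (−0.43, SE 0.14, adjusted p = 0.789 in limma). Its libraries also separated fully, and it is among the most abundant members.

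ZNF558 read 2.78, 3.19 and 2.76 FPKM in the Rongchang pigs and 2.14, 2.02 and 1.77 in the wild boars, a log2 fold change of −0.39. ZNF146, whose protein consists almost wholly of fingers, stood at 11.9, 12.1 and 10.04 FPKM and at 7.95, 10.02 and 7.51 (−0.38). The breeds were fully apart in ZNF558, and in ZNF146 only by a hair, with Rongchang 3 just above wild boar 2. ZNF622, the ribosome maturation factor, stood at 3.15, 4.79 and 5.73 FPKM and at 3.64, 1.99 and 2.46 (−0.58, SE 0.23), with wild boar 1 above Rongchang 1. Adjusted p was 0.789 for these 3 genes in limma.

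ZNF567, a KRAB zinc finger gene, was the 1 member higher in wild boar at an unadjusted p under 0.05. It read 4.72, 5.40 and 5.85 FPKM in the Rongchang pigs and 7.21, 7.36 and 7.37 in the wild boars (log2 fold change 0.40, SE 0.14, adjusted p = 0.789 in limma). The wild boars lay close together, all above the highest Rongchang pig.

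The 5 next higher genes had smaller differences. ZNF217, a partner of the corepressor CoREST and a gene amplified in tumours, read 1.06, 1.32 and 0.982 FPKM in the Rongchang pigs and 1.38, 1.53 and 1.68 in the wild boars (0.26). ZNF79 stood at 1.75, 1.97 and 1.84 and at 1.99, 2.36 and 2.51 (0.20). Both were free of overlap, ZNF79 with Rongchang 2 just under wild boar 1. ZNF644, a partner of the H3K9 methyltransferases EHMT1 and EHMT2, stood at 2.60 ± 0.329 and 3.12 ± 0.133 (0.20), ZNF630 at 1.51 ± 0.192 and 1.91 ± 0.314 (0.21) and ZNF628 at 2.98 ± 0.237 and 3.70 ± 1.02 (0.22). The breeds overlapped in ZNF644, ZNF630 and ZNF628. Adjusted p for the 5 genes ran from 0.794 for ZNF217 to 0.857 for ZNF628 in limma.

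**Figure D3:**
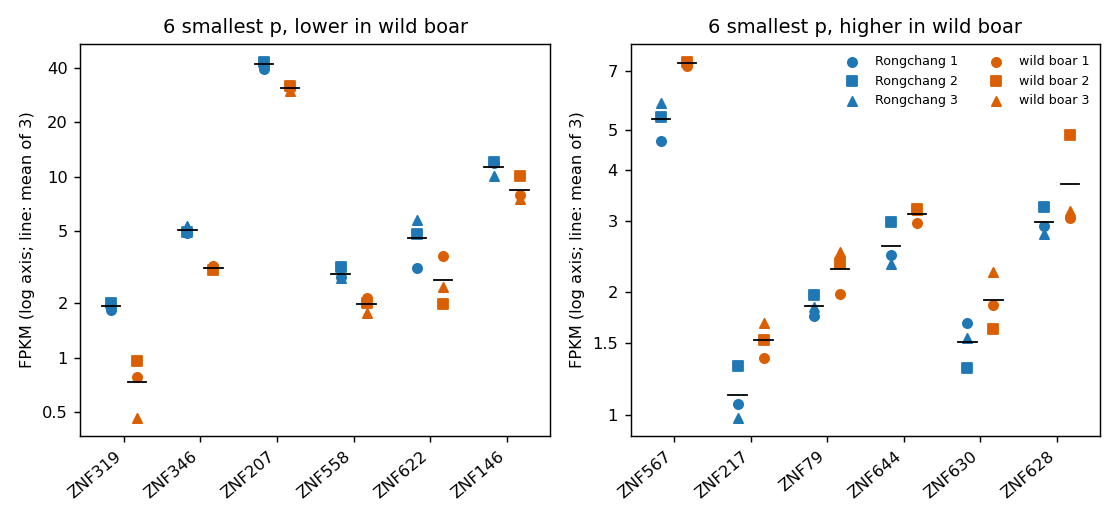
FPKM in each library on a log axis for the 6 tested ZNF genes of smallest unadjusted p on each side, Rongchang in blue and wild boar in orange, with a marker shape per animal number and a line at the mean of 3. The breeds separate fully in ZNF319, ZNF346, ZNF207, ZNF558 and ZNF146 on the left, where ZNF622 overlaps, and in ZNF567, ZNF217 and ZNF79 on the right.

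The animals of both breeds are numbered, and same-numbered libraries deviated from their breed means together. Among ZNF genes these deviations correlated at 0.331, 0.356 and 0.23 for numbers 1, 2 and 3, a description over genes that share their libraries. Pairs of different number lay between −0.453 and 0.182. The deviations of a breed sum to 0 for each gene, so positive values for the same number in part force lower values for different numbers. With the animal number as a block, 12 ZNF genes were lower and 1 was higher at an unadjusted p under 0.05, which is 9.09% of those tested against 17.4% of all genes (16% lower and 1.41% higher). The 13 were ZNF319, ZNF346, ZNF207, ZNF365, ZNF567, ZNF146, ZNF558, ZNF396, ZNF512, ZNF524, ZNF330, ZNF662 and ZNF704, of which ZNF524, ZNF662 and ZNF704 fall outside the naming rule and are named with their values known. Among them, ZNF319 was let in by the filter through Rongchang alone, so it adds nothing to the count. No ZNF gene passed with the block, and the smallest adjusted p was 0.228 in limma.

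The libraries numbered 2 stood out in both breeds. In 52 of the 143 tested ZNF genes (36.4%) the library numbered 2 was the highest of its breed in both Rongchang and wild boar, against 28.5% of other rows. It was the lowest in both in 10 ZNF genes (6.99%), against 21.5% of other rows. The median ZNF gene lay 0.12 log2 units above its 6-library mean in Rongchang 2 and 0.06 above in wild boar 2, where other rows lay at 0.07 and −0.01. In Rongchang 3 the order was the opposite, with 0.04 for ZNF genes and 0.12 for other rows. In the remaining libraries the ZNF median was also the lower, within 0.04 of that of other rows.

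**Figure D4:**
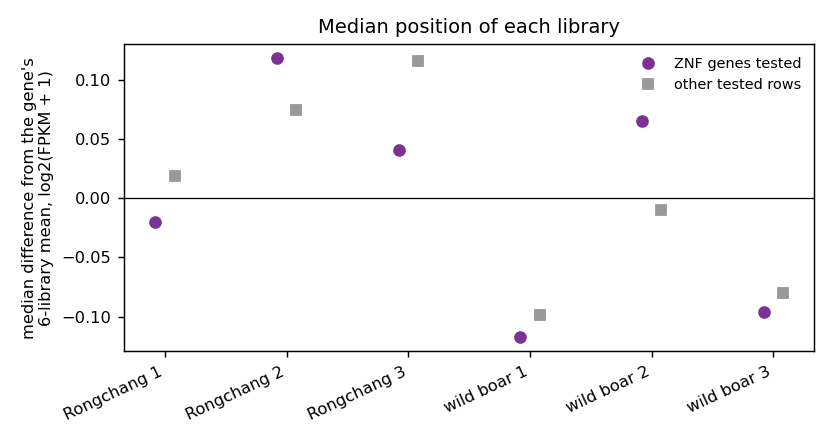
Median difference of each library from the gene's mean over the 6 libraries, in log2(FPKM + 1), for 143 tested ZNF genes (purple circles) and 13009 other tested rows (grey squares). The ZNF median is above that of other rows in both libraries numbered 2 and below it in the rest, most in Rongchang 3.

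ZNF638, a nuclear matrix protein that silences unintegrated retroviral DNA, was among the genes highest in number 2. It read 7.10, 10.5 and 7.52 FPKM in the Rongchang pigs and 6.19, 9.89 and 5.61 in the wild boars. ZNF385B stood at 7.64, 11.14 and 9.17 FPKM and at 6.29, 10.8 and 6.91, and ZNF281, a regulator of pluripotent cells, at 4.96, 6.31 and 3.98 and at 3.99, 6.81 and 4.44. In each, animal 2 stood above its breed by more than the breeds differed. The opposite pattern was widest in ZNF7, a KRAB gene chosen after its values were seen, at 10.9, 5.57 and 9.77 FPKM and at 8.26, 5.20 and 10.03.

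The widest ranges within 1 breed were found in ZNF503, ZNF396 and ZNF584. ZNF503, a repressor known from the developing striatum, read 1.44, 2.57 and 2.85 FPKM in the Rongchang pigs and 1.09, 3.88 and 1.86 in the wild boars, a range of 1.22 log2 units in wild boar. ZNF396 stood at 2.96, 3.95 and 2.90 and at 1.43, 3.54 and 1.43, with wild boar 2 near the Rongchang pigs and the other wild boars far below. ZNF584 stood at 0.905, 1.11 and 2.53 and at 1.08, 2.25 and 1.52. In each, 1 animal stood far from the others of its breed.

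By role, members with tasks in RNA, ribosome, ubiquitin or SUMO biology came first. Of 14 listed, 10 were in the table and tested, 9 lay below 0, and the median log2 fold change was −0.21 where all other rows had −0.13. By limma none passed, and 3 had an unadjusted p under 0.05, ZNF346, ZNF207 and ZNF622, all lower, where 5.42% of all genes were lower at that mark. The limma p of ZNF622 was 0.0527 with the animal number as a block and 0.0952 with median scaling, and that of ZNF207 was 0.081 with median scaling. ZNF330, a nucleolar protein, averaged 6.09 ± 0.46 FPKM in the Rongchang pigs and 4.78 ± 0.352 in the wild boars, without overlap. ZNF106, an RNA-binding protein needed by motor neurons, stood at 8.46 ± 1.81 and 8.28 ± 1.05, with overlap. ZNF638 and ZNF277, given above, overlapped too. This list was drawn up with results of these data known, so its median describes it only.

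Members with roles in transcription and chromatin numbered 17 of 24 listed, of which 16 were tested. Of these, 11 lay below 0 and the median was −0.07. By limma none passed and 0 reached an unadjusted p under 0.05, where 6% of all genes did. ZNF143, an activator of small nuclear RNA and housekeeping promoters, read 7.43, 7.03 and 7.54 FPKM in the Rongchang pigs and 8.09, 8.33 and 8.19 in the wild boars. All wild boars were above all Rongchang pigs by a small margin. ZNF148, which binds GC-rich promoters, stood at 6.68 ± 1.17 and 5.42 ± 0.182, ZNF609, a partner of the cohesin loader NIPBL in cortical progenitors, at 5.29 ± 0.895 and 5.54 ± 1.14, and ZNF281 at 5.09 ± 1.17 and 5.08 ± 1.52. The breeds overlapped in ZNF148, ZNF609 and ZNF281.

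Of 18 listed genes of nervous system development or disease, 12 were in the table and 10 were tested. Of these, 9 lay below 0 with a median of −0.14, near that of all other rows. By limma none passed and 0 reached an unadjusted p under 0.05 without the block, where 6% of all genes did. ZNF365, a binding partner of the psychiatric risk protein DISC1, read 11.4, 13.9 and 13.4 FPKM in the Rongchang pigs and 8.52, 11.4 and 9.45 in the wild boars, where wild boar 2 just passed Rongchang 1. ZNF24, needed by oligodendrocytes to make myelin, stood at 8.15, 9.82 and 7.99 FPKM and at 7.74, 7.94 and 5.95, without overlap but with wild boar 2 close to Rongchang 3. ZNF385B, given above, followed animal number more than breed. ZNF81 and ZNF804B stayed under the filter, at means of 0.588 and 0.405 FPKM.

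**Figure D5:**
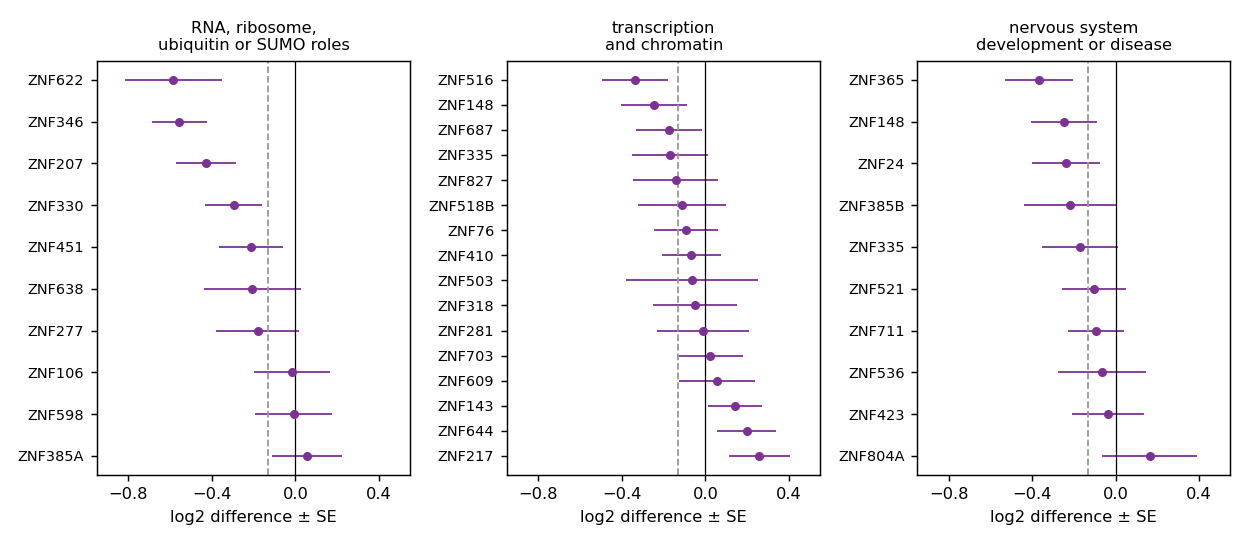
Difference between the breeds with its standard error, wild boar minus Rongchang in log2(FPKM + 1), for the tested members of 3 role lists. The solid line marks 0 and the dashed line the median of other rows at −0.13, and the 3 genes farthest left are ZNF622, ZNF346 and ZNF207 of the RNA, ribosome, ubiquitin or SUMO list.

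The listed partners of KRAB zinc finger proteins, which here include relatives of TRIM28 and general chromatin genes, spanned a wide range of levels. Of 39 listed, 29 were in the table, with means from 0.142 to 130.1 FPKM and a median of 7.75, and 26 were tested. TRIM28 was not analysed here. By limma none passed, and 0 had an unadjusted p under 0.05, where 6% of all genes did. The median log2 fold change was −0.09, as for the ZNF genes, and 19 of 26 lay below 0. SETDB1 read 8.19, 6.72 and 7.29 FPKM in the Rongchang pigs and 8.36, 5.53 and 6.95 in the wild boars, with overlap (−0.09, or 0.062 after median scaling). The heterochromatin protein CBX1 stood at 23.9 ± 1.77 and 21.4 ± 0.462 (−0.15, or 0.018 after median scaling). The histone chaperone subunits CHAF1A (1.84 ± 0.157 and 1.37 ± 0.23, −0.27) and CHAF1B (1.86 ± 0.436 and 1.44 ± 0.423, −0.24) deposit histones behind replication forks. TRIM24 and TRIM33, relatives of TRIM28, stood at 8.35 ± 1.24 and 7.15 ± 0.354 (−0.19) and at 1.67 ± 0.345 and 1.21 ± 0.295 (−0.28). TASOR, the scaffold of the HUSH silencing complex, stood at 4.58 ± 0.918 and 3.88 ± 0.35 (−0.18). The breeds overlapped in CHAF1B, TRIM24, TRIM33 and TASOR but not in CBX1 and CHAF1A. Over all genes tested, 11.4% lay wholly lower in wild boar. All partners given values had a fold change below 0 before median scaling, so they do not show the listed partners that lay above it.

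Genes with ZBTB, ZSCAN, ZFP, KLF and ZKSCAN symbols are given for comparison, picked by symbol alone, with no test between families. Such a pick can take in genes of another structure, so the medians are those of symbol groups. The 26 ZBTB genes, most of which pair fingers with a BTB domain, had a median level of 2.81 FPKM. The 22 tested had a median log2 fold change of −0.05. The 8 ZSCAN genes, with a SCAN domain, had a median level of 1.14 FPKM, and the 5 tested had a median of −0.12. The 10 ZFP genes stood at a median of 4.43 FPKM with −0.07, and the 11 KLF genes at 3.08 FPKM with −0.08 over the 6 tested. The 4 ZKSCAN genes had a median level of 0.899 FPKM, and 1 was tested (−0.17). By limma none of these passed, and 0 reached an unadjusted p under 0.05, where 6% of all genes did.

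Zinc finger genes lie in runs along chromosomes. In the RefSeq gene order of the assembly Sscrofa11.1, used here for order alone, 150 of the 168 symbols were found, and 55 of these lay within 5 genes of another member, in 21 groups. These had a median level of 2.49 FPKM, a median log2 fold change of −0.08 and 74.5% of tested genes below 0. The 95 with no other member within 5 genes had 2.98 FPKM, −0.10 and 77.8%. Zinc finger genes under other symbols were not counted as neighbours, so the 95 need not lie apart from them. The largest group held 7 members, in the order ZNF146, ZNF565, ZNF567, ZNF382, ZNF529, ZNF260 and ZNF566. Neighbours in it differed in direction. ZNF146, ZNF565 and ZNF566 were lower in all wild boars than in all Rongchang pigs, ZNF567 between them was higher in all, and ZNF382, ZNF529 and ZNF260 overlapped. Over all genes tested, 12.5% were without overlap in either direction. The unadjusted limma p was 0.179 for ZNF565 and 0.0795 for ZNF566, and ZNF566 was let in by the filter through Rongchang alone. ZNF565 read 1.78, 1.37 and 1.46 FPKM in the Rongchang pigs and 1.34, 0.875 and 1.27 in the wild boars, and ZNF566 read 1.07, 1.18 and 1.09 and at 0.846, 0.821 and 0.449. ZNF565 and ZNF566 are named for their place in the group, with their values known. Whether reads shared between such paralogues bear on these values was not tested.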

How the data were processed

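The deposited table gives 1 FPKM value per gene and library, which the authors deposited. The submitters' processing notes name TopHat2 2.0.11, Cufflinks 2.2.1 and Cuffdiff, with no role or order. Per the labels' protocols, libraries were poly(A)-selected, strand-marked with dUTP and read as pairs. The header names no unit, which was judged from the tools and the values. No source used here gives the genome build, the annotation or any scaling between libraries. Ratios of values under 0.15 FPKM between 2 libraries gathered in no common step (at most 23.8% within 0.04 log2 units), so depth could not be recovered.

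Symbols were found for 10937 of 18225 identifiers (60%). Breeds were tested on log2(FPKM + 1) by limma 3.58.1 (R 4.3.3), two-sided, with a mean-variance trend. Genes had to reach 1 FPKM in 3 or more of the 6 libraries. Benjamini-Hochberg adjustment ran over all 13152 genes tested, with a threshold of 0.05. The labels name no further origin of the animals, so p-values rest on the spread of these libraries alone. On 10 simulated tables of 13152 genes the procedure recovered 49.1% of 2-fold and 88.6% of 4-fold changes of FPKM + 1. Each table had 200 changed genes and a mean of 5.7 false calls. For genes of low level such changes are larger ratios of FPKM, so recovery of 2-fold FPKM changes of ZNF genes is not given. Simulated noise was independent between libraries, without the shared deviations of same-numbered libraries.

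Over all genes tested, the correlation of same-numbered libraries, after removal of breed means, was 0.283, 0.587 and 0.368, above the bound of 0.1 for pairing. The pairing comes from the data alone, and Rongchang 1 with wild boar 3 (0.125) also lay above it.

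Genes named are the 10 most abundant, the 6 of smallest unadjusted p on each side, role list members with a mean of at least 5 FPKM or an unadjusted p under 0.05, SETDB1 and 6 other partners with the smallest p, the 3 with the widest range in a breed, and 2 on either side of a mean of 1 FPKM. ZNF7, ZNF81, ZNF185, ZNF367, ZNF541, ZNF598, ZNF804B and the groups named by count or by neighbourhood fall outside this rule and were picked with their values known. The members and lists were chosen with earlier results of these data known. Protein sequences were not used here, so members were not classed by domain.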

Additional observations from a re-analysis of the deposited data

How the results depend on the processing

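No ZNF gene passed under any of 17 alternatives in limma (2 pseudocounts, 2 filters, 3 scalings, the variance model, the replicate block with and without median scaling, each library left out, and both libraries numbered 2 left out), with adjusted p of the ZNF genes and partners given fold changes from 0.228 to 1. Of 310 such fold changes for 19 genes, 303 kept their direction. The replicate block and the variance model leave fold changes as they are in this balanced design, so those could not turn. SETDB1 turned to 0.062 with median scaling, with or without the block, to 0.057 with quantile normalization and to 0.043 without wild boar 2 (from −0.22 without wild boar 1), and CBX1 to 0.018 with median scaling, with or without the block, and to 0.0019 with quantile normalization. Scaling decided the sign of the medians. The ZNF median was 0.025 with median scaling, with or without the block, and 0.040 with quantile normalization, with 39.9% and 37.8% of genes below 0, and the partners' median was 0.061 and 0.051. Relative to other rows the ZNF median ran from −0.0075, without wild boar 2, to 0.07, without Rongchang 2. The share of listed ZNF genes detected was 99.4% at a minimum of 0.1 FPKM and 95.8% at 0.5 FPKM in at least 3 libraries. The count of all genes passing was 3 with a pseudocount of 0.1, 0 with a minimum mean of 5 FPKM, 3 without both libraries numbered 2, 1 with the replicate block, and 1 to 4 with single libraries left out (4 without Rongchang 1, Rongchang 2 or wild boar 1). The block changed no call of a ZNF gene. At an unadjusted p under 0.05 the ZNF genes numbered 2 without wild boar 3 (1.4%, against 3.59% of all genes), 4 without Rongchang 2 (2.8% against 6.59%) and 13 without wild boar 2 (9.09% against 10.1%), where all libraries gave 7 (4.9% against 6%). Each of these counts includes ZNF319, which the filter let in through Rongchang alone. Depth is unknown, so no limit from counting can be given.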
